A study of Yarrowia lipolytica with 9 samples.

Results

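OLE1 and FAD2, the genes of the fatty acid desaturases of the oleaginous yeast Yarrowia lipolytica, were followed across 3 strains that carried different forms of the transcription factor gene Yl-SPT15. The genes were chosen by accession: XM_501496.1, taken as OLE1 (YALI0C05951g), and XM_500707.1, taken as FAD2 (YALI0B10153g), which are 2 of the 6145 features in the deposited tables. The tables carry no gene names, and length and chromosome were the only checks, which cannot show which enzyme a gene encodes. Dividing the counts by the FPKM values (counts relative to the length of the feature and the total count of the sample) gave a length of 1449 bases for XM_501496.1 and of 1260 bases for XM_500707.1 in all 9 samples, which are the lengths that RefSeq gives these accessions in strain W29 (assembly ASM176148v1). That assembly places them on chromosomes 1C and 1B, the letters within their YALI0 identifiers. No sequence was at hand to check the enzymes themselves.

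Ole1 is the delta-9 desaturase, a membrane enzyme of the endoplasmic reticulum that places the first double bond into saturated acyl chains and so turns stearic into oleic acid and palmitic into palmitoleic acid. Fad2 is the delta-12 desaturase, which adds the next double bond and turns oleic into linoleic acid. Oleic and linoleic acid are major fatty acids of Y. lipolytica, and in yeasts both kinds of desaturase draw electrons from cytochrome b5 and use molecular oxygen. The enzymes therefore act in sequence, with the product of Ole1 as the substrate of Fad2.

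All 3 strains derived from ATCC 201249, a host with mutations in ura3, leu2 and lys8 and an HA-tagged PEX17, and all carried the crtE, crtB, crtI and crtY genes of a beta-carotene pathway, integrated with a URA3 marker at the rDNA, and Yl-SPT15 cassettes with a LEU2 marker at the GUT2 site under the GPAT, YAT1, XPR2, FBA and LEU promoters. The right end of the insertion at GUT2 was not resolved, and GUT2 expression was lowered and not lost in all 3 strains. Yl_5_1, the control, held wild-type cassettes only. Yl_5_2, the deep yellow strain, held E208A in module 1 and P25T, A213T and A216V in module 5 (positions counted from the start methionine of Yl-Spt15), and Yl_5_3, the light yellow strain, held F194L in module 2. The mutant strains were picked as single colonies by colour and the native Yl-SPT15 gene was kept, so that a difference between strains cannot be told apart from other differences between the colonies. RNA was taken from 3 samples of each strain after 96 h in flasks at 28 °C and 250 rpm. The labels do not say that the samples of a strain came from separate cultures, and p-values then measure only the spread between these samples. The study also measured fatty acids in these strains, in other assays that are not part of the files.

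The total count lay between 17771507 and 23288547 per sample, and TMM factors, which scale the samples to each other, lay between 0.952 and 1.05. They were higher in each Yl_5_2 sample (1.03 to 1.05) and lower in each Yl_5_3 sample (0.952 to 0.961) than in the control samples (0.992 to 1.01), so the scaling moved with the strain. No pair of samples of a strain agreed within sampling noise (chi-square per degree of freedom of at least 3.37). Yl-SPT15 itself was not matched to an accession and is not analysed here.

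OLE1 was one of the abundant transcripts of all 3 strains and differed little between them. The control samples gave 1341, 1329 and 1339 FPKM, the Yl_5_2 samples 1263, 1247 and 1283 FPKM, and the Yl_5_3 samples 1213, 1193 and 1210 FPKM. The groups did not overlap: every control sample was above every mutant sample, and on this scale Yl_5_3 was lowest. Non-overlap was common in these data: between 61.4% and 72.1% of the features tested did not overlap between a pair of strains, as counted on TMM-normalized counts and not on FPKM. The strain means were 1336 ± 6.58, 1264 ± 18.3 and 1205 ± 10.7 FPKM (SD, n = 3 each). Between 31155 and 45266 reads were counted on OLE1 per sample, which is between 0.173% and 0.194% of all counts, and by FPKM it ranked between 127 and 151 among the 6145 features. Its mean over the 9 samples was 27.9 times the FPKM of the median feature.

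FAD2 was expressed at a lower level than OLE1 and differed more between the strains. The control samples gave 171, 160 and 158 FPKM, the Yl_5_2 samples 140, 134 and 135 FPKM, and the Yl_5_3 samples 174, 172 and 179 FPKM. Every Yl_5_2 sample was below all other samples, whereas the highest control sample, at 171.2 FPKM, lay just under the lowest Yl_5_3 sample, at 171.6 FPKM. The means were 163 ± 7.02, 136 ± 3.06 and 175 ± 3.54 FPKM (SD, n = 3 each) in Yl_5_1, Yl_5_2 and Yl_5_3. Counts on FAD2 lay between 3052 and 5025 per sample, or between 0.0169% and 0.0225% of the total. By FPKM it ranked between 1003 and 1046 in Yl_5_3, between 1077 and 1173 in Yl_5_1, and between 1369 and 1425 in Yl_5_2, and its mean was 3.48 times that of the median feature.

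**Figure D1:**
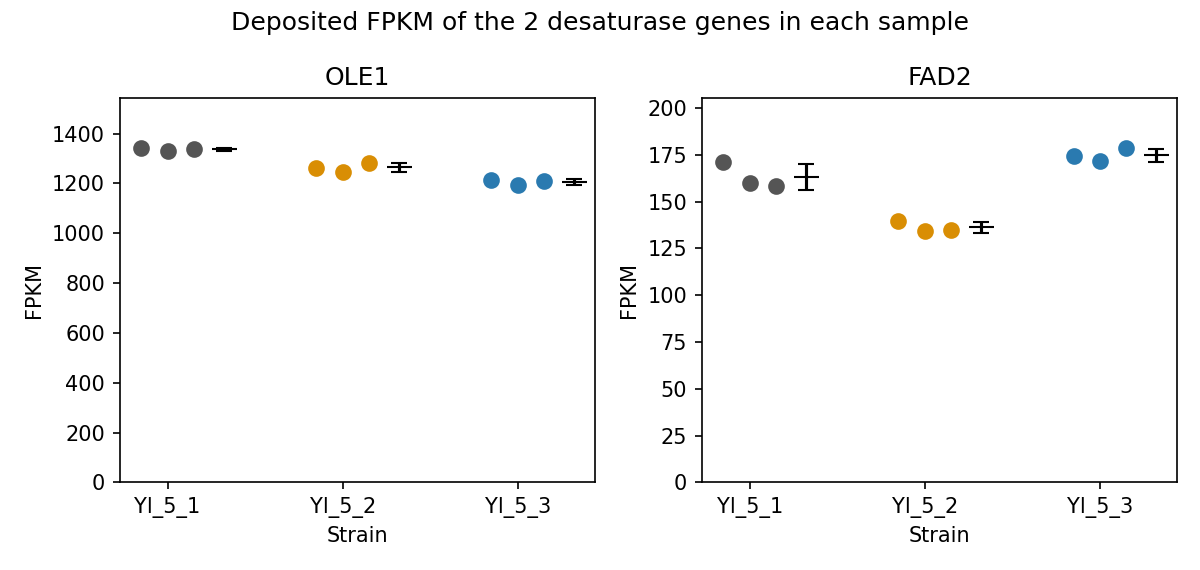
FPKM of OLE1 (left) and FAD2 (right) in each sample of the 3 strains; points are samples, and the bar beside them is the mean with its SD (n = 3). The vertical axes start at 0 and differ in range: OLE1 lies between 1193 and 1341 FPKM throughout, while FAD2 falls to between 134 and 140 in Yl_5_2 and lies between 172 and 179 in Yl_5_3.

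FPKM carries no scaling beyond the total count, so the strains were compared on TMM-normalized counts with edgeR's quasi-likelihood test, in one model of all 9 samples with Benjamini-Hochberg adjustment over the 6037 features tested. A gene was called at an adjusted p under 0.05. These values are relative to the other transcripts of the same sample and do not give the amount of RNA per cell. Both comparisons with Yl_5_1 use the same control samples.

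Both desaturase genes were lower in Yl_5_2 than in the control. FAD2 averaged 164 ± 3.78 CPM (counts scaled by library size and TMM factor) in Yl_5_2 and 206 ± 7.32 CPM in Yl_5_1 (SD, n = 3 each). Its fitted log2 fold change was -0.32 (95% interval -0.41 to -0.24, standard error 0.039), with an adjusted p of 2.2e-06 from the edgeR test, which is to say that it fell by 20.1%. OLE1 averaged 1753 ± 8.82 CPM in Yl_5_2 and 1937 ± 15.7 CPM in Yl_5_1 (SD, n = 3 each). It fell by 9.51%, with a fitted log2 value of -0.14 (95% interval -0.23 to -0.06) and an adjusted p of 0.0043 from edgeR. With total counts only in place of TMM factors the OLE1 change was -0.08 and was not called (adjusted p = 0.071 from edgeR), while FAD2 kept its call at -0.26. Of all features tested, 57.4% were called in this comparison and 61.4% had CPM values that did not overlap between the strains, as both genes had. A call in this comparison was thus the more common outcome among all features.

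In Yl_5_3 FAD2 was higher than in the control, while OLE1 was lower without a call under TMM scaling. FAD2 averaged 230.2 ± 5.78 CPM in Yl_5_3 (SD, n = 3) and rose by 11.9% over the control, or 0.16 on the log2 scale (95% interval 0.08 to 0.24, standard error 0.038), with an adjusted p of 0.0018 from edgeR. With total counts only the rise was 0.10 on the log2 scale (adjusted p = 0.041 from edgeR), and it was called in each of the 9 fits that left out a sample. OLE1 was at 1824 ± 22.2 CPM (SD, n = 3) in Yl_5_3, with a log2 fold change of -0.09 against the control (95% interval -0.17 to -0.005) and an adjusted p of 0.068 from edgeR, so it was not called. Its call depended on the scaling: with total counts only the log2 fold change was -0.15 and was called (adjusted p = 0.0025 from edgeR). In this comparison 55.3% of the features tested were called, as was 1 of the 2 genes, and 63.3% had CPM values that did not overlap between the strains, which held for both genes.

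The direct comparison of the mutant strains gave the widest difference in FAD2 and none that was called in OLE1. For FAD2 the log2 fold change of Yl_5_2 against Yl_5_3 was -0.49 (95% interval -0.57 to -0.40) with an adjusted p of 8.64e-09 from edgeR, or -28.6% relative to Yl_5_3. It stayed called at -0.36 with total counts only. For OLE1 the log2 fold change was -0.06 (95% interval -0.14 to 0.02, adjusted p = 0.2 from edgeR). By CPM, OLE1 in Yl_5_2 was between 1746 and 1763 and below the 1799 to 1842 of Yl_5_3, whereas by FPKM it was above. With total counts only the sign turned, to 0.07. Against the control, OLE1 was not called in Yl_5_3 with TMM, nor in Yl_5_2 with total counts only. Its mean was highest in Yl_5_1 on both scales, and the order of the mutant strains was not settled. Between the mutant strains 67.4% of all features tested were called and 72.1% did not overlap in CPM.

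**Figure D2:**
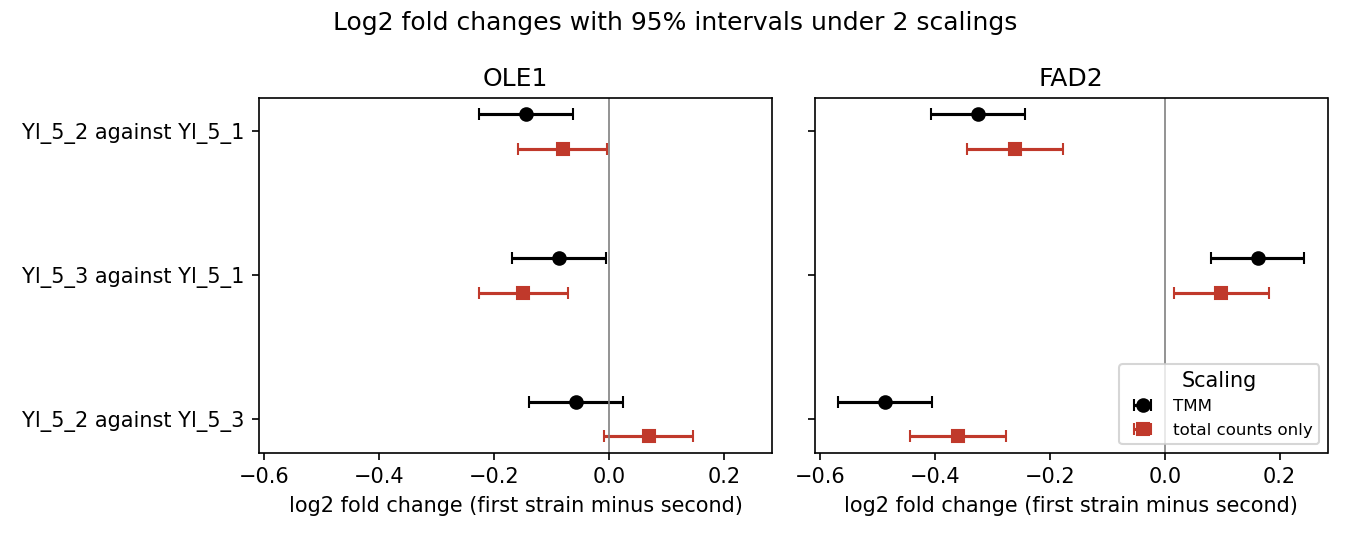
Log2 fold changes of OLE1 (left) and FAD2 (right) in the 3 comparisons, with 95% intervals from edgeR, under TMM scaling (black circles) and with total counts only (red squares). FAD2 keeps its direction in every comparison, while OLE1 in Yl_5_2 against Yl_5_3 lies at -0.06 with TMM and at 0.07 with total counts.

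The ratio of the genes within a sample needs no scaling between libraries. OLE1 divided by FAD2, each as counts per base, came to 7.83, 8.31 and 8.45 for the control samples, to 9.03, 9.28 and 9.52 for the Yl_5_2 samples and to 6.96, 6.95 and 6.77 for the Yl_5_3 samples. The 3 strains did not overlap, with Yl_5_2 highest and Yl_5_3 lowest. How often the ratio of other pairs of features separates the strains was not tested. Single features often did: between 61.4% and 72.1% of those tested did not overlap in CPM between a pair of strains. The mean ratios of OLE1 to FAD2 were 8.2 ± 0.325 in Yl_5_1, 9.28 ± 0.245 in Yl_5_2 and 6.89 ± 0.105 in Yl_5_3 (SD, n = 3 each). An exact permutation test of the F statistic over the 1680 assignments of the samples to strains gave p = 0.0036, the smallest that this design allows. The ratio was 1.13 times that of the control in Yl_5_2, 0.841 times that of the control in Yl_5_3, and 1.35 times as high in Yl_5_2 as in Yl_5_3. For each of these 3 pairs the exact two-sided permutation p was 0.1 (0.1 after Benjamini-Hochberg adjustment over the 3 pairs), the smallest possible with 3 samples against 3. With 1 sample left out, the difference between Yl_5_2 and the control lay between 0.15 and 0.20 on the log2 scale and that between Yl_5_3 and the control between -0.28 and -0.23.

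**Figure D3:**
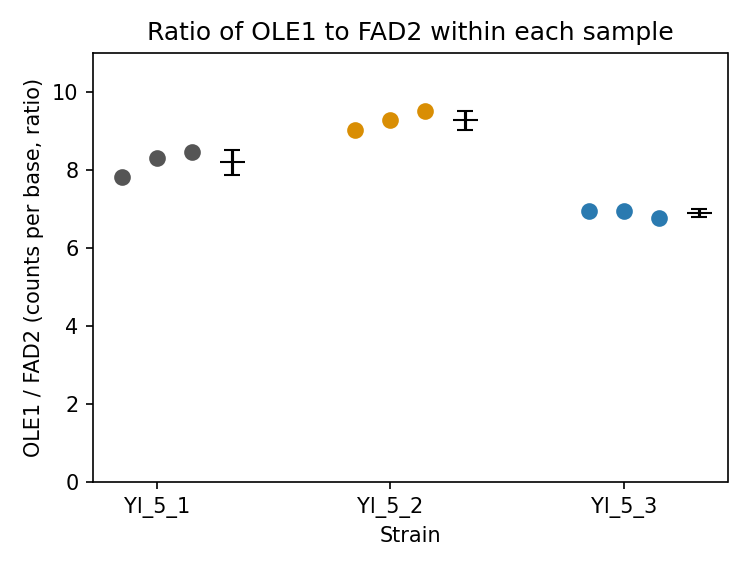
Ratio of OLE1 to FAD2, each as counts per base, in each of the 9 samples; points are samples and the bar beside them is the mean with its SD (n = 3). The samples of Yl_5_2 lie between 9.03 and 9.52, those of Yl_5_1 between 7.83 and 8.45 and those of Yl_5_3 between 6.77 and 6.96.

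The depth behind both genes was high enough that counting error was small. Counting alone gives a coefficient of variation of between 0.509% and 0.547% for OLE1 and of between 1.53% and 1.79% for FAD2. The observed coefficient of variation of the CPM within a strain was between 0.503% and 1.22% for OLE1 and between 2.3% and 3.56% for FAD2. The median over the 1221 features at least as abundant as FAD2 was 3.68% in Yl_5_1, 3.33% in Yl_5_2 and 2.18% in Yl_5_3, so that FAD2 varied less than this median in Yl_5_1 and Yl_5_2 and more, at 2.51%, in Yl_5_3. The standard error of the fitted log2 fold changes was nonetheless about the same for both genes, at 0.039 for OLE1 and 0.038 to 0.039 for FAD2, beside a median of 0.042 over the 1221 features that were at least as abundant as FAD2. The fit estimates the spread of each gene between samples with the help of the other features tested. The standard error of OLE1 therefore does not reflect its own small spread alone, nor does the lack of a call. The 95% intervals of the fold changes come from these standard errors.

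The changes of both genes were moderate beside those of other transcripts. In Yl_5_2 against Yl_5_1, 72.9% of the features tested had a smaller absolute log2 fold change than FAD2 and 38.8% a smaller one than OLE1. In Yl_5_3 against Yl_5_1 these shares were 47.3% for FAD2 and 27.5% for OLE1, and between the mutant strains they were 77.5% and 12.9%. The median absolute log2 fold change over all features was 0.19, 0.17 and 0.26 in the same 3 comparisons. Among the 1221 features at least as abundant as FAD2, 71.3% were called in Yl_5_2 against Yl_5_1, 62.8% in Yl_5_3 against Yl_5_1 and 77.1% between the mutants. FAD2 thus changed by more than the median feature in both comparisons that involve Yl_5_2, and OLE1 by less than the median feature in all 3.

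**Figure D4:**
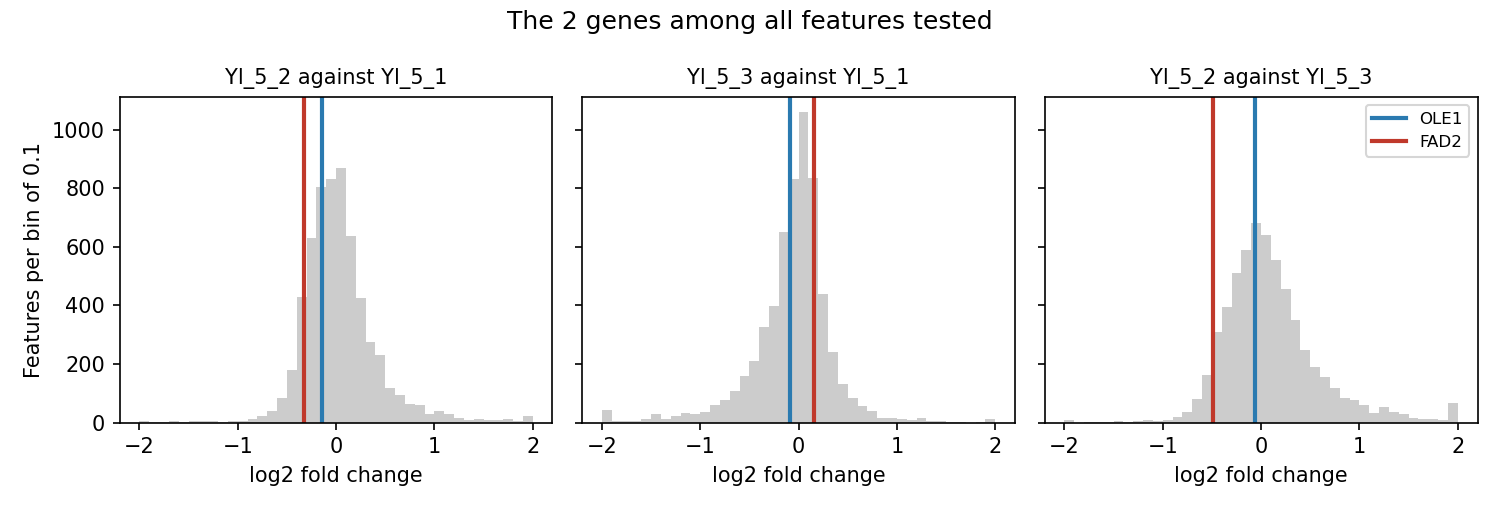
Number of features per bin of 0.1 in log2 fold change (TMM scaling, 6037 features; changes beyond the axis are counted in the outermost bins) in the 3 comparisons, with OLE1 as a blue and FAD2 as a red line. FAD2 lies at -0.32, 0.16 and -0.49 and OLE1 at -0.14, -0.09 and -0.06.

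The features whose pattern was most like that of each gene were found by Pearson's r of log2 CPM over the 9 samples, which fall into 3 strains, so that r mostly compares strain means. OLE1 and FAD2 had an r of 0.548 with each other. For OLE1, 150 of the 6036 other features had an r over 0.9 and 292 an r under -0.9. The closest was XM_504073.1 (YALI1_E20995g in RefSeq, r = 0.993), with 298 ± 3.16 FPKM in Yl_5_1, 241 ± 9.4 in Yl_5_2 and 247 ± 7.82 in Yl_5_3 (SD, n = 3). XM_505149.1 (YALI1_F11481g, r = 0.988) followed, from 564 ± 8.28 to 373 ± 5.65 and 408 ± 11.7 FPKM (SD, n = 3), with log2 fold changes of -0.66 and -0.41 against the control. Both fell in both mutant strains, and by more than OLE1 did. For FAD2, 729 features had an r over 0.9 and 447 an r under -0.9. The closest were Novel00114 (r = 0.993), a transcript that the authors added, and XM_504480.1 (YALI1_E32722g, r = 0.993). The latter was far more abundant than FAD2, with 3778 ± 241 FPKM in Yl_5_1, 2980.3 ± 83.4 in Yl_5_2 and 4301 ± 104 in Yl_5_3 (SD, n = 3), and its log2 fold changes of -0.41 and 0.25 against the control were in the directions of FAD2. The feature in the third place had an r of 0.983 with OLE1, and another feature in the third place for FAD2 had an r of 0.993 with it. The table of names gives none of these features a function.

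In the W29 assembly no annotated gene overlapped the desaturase genes, and the nearest lay 1130 bases away. Of the nearest neighbours measured on each side, those of OLE1 had log2 fold changes of 0.15 and 0.03 in Yl_5_2 and of 0.10 and 0.15 in Yl_5_3 against the control, where OLE1 was at -0.14 and -0.09. Those of FAD2 were at 0.04 and 1.71 in Yl_5_2 and at -0.17 and 0.45 in Yl_5_3. Beside OLE1 the values of 0.15 were called in each strain, and those of 0.03 and 0.10 were not. Beside FAD2 the values of 1.71 and -0.17 were called, and those of 0.04 and 0.45 were not. Of all features tested, 57.4% were called in Yl_5_2 and 55.3% in Yl_5_3 against the control. On each side of OLE1, 1 annotated gene that was not found among the features lay in between. The neighbour with the value of 1.71 had a mean of only 2.8 FPKM. The strand setting of the counting is not given in the sources used here, so reads from a transcript antisense to either gene could not be told apart from its own.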

How the data were processed

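Libraries made with the NEBNext Ultra RNA kit were sequenced on an Illumina HiSeq as paired-end reads and analysed by Novogene. The authors deposited raw read counts per feature, and the submitters' processing notes name HTSeq 0.6.1 and DESeq 1.18.0; the aligner, genome build and strand setting are not given in the sources used here. The authors also deposited FPKM values, which are these counts divided by the length (a coding length: 100% of the lengths of features with an accession are multiples of 3) and by the total count. The build of the files is not stated, so no coordinates are printed. The number of columns not used was 0.

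Samples were grouped by their titles. The count test was edgeR 4.0.16 under R 4.3.3, a robust quasi-likelihood F test with TMM factors and 1 term per strain, fitted to all 9 samples. It covered the 6037 features that reached 10 counts in 3 samples or more, and p-values were adjusted over these by Benjamini-Hochberg. A standard error is the fold change divided by the root of F. The log2 ratio of OLE1 to FAD2 was tested by exact permutation. The count test was tried on simulated counts in which a small share of features changed, in Yl_5_2 only and equally up and down. That setting does not test the scaling where most features are called, as in these data. The permutation test was tried on made-up values that separated fully. Alternatives were median-of-ratios, upper-quartile and total-count scaling, DESeq2 1.42.0, leaving the filter out or raising it to 50 counts in each sample, models limited to the 6 samples of a comparison, the replicate number as a block, omission of single samples, and limma 3.58.1 on log2(FPKM + 1) and log2(FPKM + 0.1).

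The rule for named genes was both desaturase genes, the matched genes of a list of fatty acid and lipid functions, proteins alike in sequence, the 3 features most like each gene in pattern (at most 2 unannotated accessions that rose and 2 that fell), and Yl-SPT15. The table of names, in which 5430 of the 6145 features were found, holds locus tags without functions, YALI0 identifiers or sequences: 0 of the 8 functions of the list were matched, and the list, the protein search and Yl-SPT15 are not analysed here. The genes and the list were chosen with earlier results of these data known.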

Additional observations from a re-analysis of the deposited data

Results flagged for a closer look

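FAD2 (XM_500707.1) differed between the mutant strains and lay on opposite sides of the control in them. Its log2 level in Yl_5_2 minus that in Yl_5_3 was -0.49 (adjusted p = 8.64e-09 from edgeR, Benjamini-Hochberg over all features tested), with all 3 samples of Yl_5_2 below all 3 of Yl_5_3. In this comparison 67.4% of all features tested were called and 72.1% did not overlap, so neither sets FAD2 apart. Over the alternatives this value lay between -0.51 and -0.36. The comparisons with the control share its samples.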

How the results depend on the processing

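FAD2 kept its direction and its call in all 3 comparisons under each of the 19 alternatives, with a highest adjusted p of 0.045 for its rise in Yl_5_3 (limma on log2(FPKM + 1)). OLE1 depended on the scaling. In Yl_5_2 against Yl_5_1 its log2 fold change of -0.14 became -0.080 with total counts only, -0.080 with limma on log2(FPKM + 1) and -0.080 on log2(FPKM + 0.1), and was no longer called (adjusted p between 0.066 and 0.071). In Yl_5_3 against Yl_5_1 it went from -0.09 to -0.15 and was called under the same 3 settings. Between the mutants it turned from -0.06 to 0.069 under each of these settings without a call, and DESeq2's Wald test called it at -0.077 (adjusted p = 0.04). The adjusted p over all alternatives lay between 0.04 and 0.383 there.

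Total counts in place of TMM moved the median log2 fold change of all features by 0.06 in Yl_5_2 and by -0.06 in Yl_5_3 against the control, and by 0.13 between the mutants. Relative to these medians (0.06, -0.07 and 0.16 with total counts) OLE1 was lower in each comparison. The share of called features that were higher went from 47.7% to 61.7% in Yl_5_2, from 46.3% to 31.8% in Yl_5_3 and from 54.1% to 71.3% between the mutants, while the number called stayed within 1.5 times that of the TMM fit under every alternative.

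With each sample left out, FAD2 lay between -0.34 and -0.29 in Yl_5_2, between 0.15 and 0.19 in Yl_5_3 and between -0.50 and -0.46 between the mutants, and OLE1 between -0.15 and -0.13, between -0.09 and -0.07, and between -0.06 and -0.05. No call changed. Where 2 samples of a strain remained, the fit pooled the spread over all strains.

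Samples of the same replicate number deviated from their strain means with correlations between -0.16 and 0.29 across genes, and 2 of the 9 pairs were over 0.1, so the numbers were not taken as pairing samples. The replicate block changed no call of either gene: in Yl_5_2 against Yl_5_1 FAD2 was at -0.32 and OLE1 at -0.14. With labels permuted only within numbers, the ratio of OLE1 to FAD2 gave an exact permutation p of 0.028, and 0.0036 under the others, each the smallest possible, so these p-values say nothing of stability. The alternatives for the list of fatty acid and lipid genes were not run, since no gene of it was matched.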
